A study of Mus musculus with 20 samples.

Results

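The promoters of 35 germline and meiosis genes were followed by ATAC-seq, in which Tn5 transposase tags accessible DNA, while mouse fibroblasts were reprogrammed. The 35 genes were chosen by name and function out of 21951 protein-coding genes in the GENCODE M21 annotation of mm10. A gene was called open in a library when a peak overlapped the 2 kb on either side of any of its annotated start sites, and the narrower window of 500 bp around its 5′ end was read beside it. There were 20 libraries. They came from 1 sample of mouse embryonic fibroblasts (MEFs) carrying an Oct4-GFP reporter (OG2), from 3 samples of embryonic stem cells (ESCs) derived from embryos with the same reporter and grown without feeders in 2i and LIF, and from such MEFs transduced with retroviral Oct4 together with Nanog or NanogN70 and collected on 8 days, which were 0, 1, 3 and 5 and then 7, 8, 10 and 12, with 1 library per day and path. Day 0 followed the infections, and the cells were then kept in iCD3 medium and later in N2B27 with 2i and LIF. NanogN70, called NanogBiD in the study, is NANOG with a stretch of SS18 that binds the remodeler BRG1 joined to its N-terminus. Both paths carry Oct4, so the paths differ in the SS18 part. For the ESC samples the title and the source field disagree (the latter says MEF), and grouping followed the title. They are not stated to be separate cultures, so their SD may be technical.

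Germline genes are silent in most somatic tissues, where DNA methylation of their CpG-rich promoters and repressors that bind E-box and E2F motifs are known to keep them off. In germ cells the piRNA pathway uses PIWI proteins and small RNAs to silence transposons, and at meiosis cohesins and axis proteins build the chromosome core on which SPO11 cuts the DNA and DMC1 pairs the broken ends with the homologous chromosome. ESCs in 2i medium have low DNA methylation and are known to transcribe some of these genes at a low level without entering meiosis.

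To show what these promoters look like, the RefSeq sequences (GRCm38.p6, 250 bases before to 50 bases after the start, 5′ to 3′ on the gene's strand) follow for 6 genes that had no peak in MEFs and a peak in all 3 ESC libraries. Rec8 (chr14:55617916-55618215, plus strand), Sohlh2 (chr3:55181794-55182093, plus strand) and Hormad2 (chr11:4441033-4441332, minus strand) are those with the most days open within 2 kb in the 2 paths together. Syce1 (chr7:140787805-140788104, minus strand), Mael (chr1:166238695-166238994, minus strand) and Ddx4 (chr13:112652261-112652560, minus strand) had the highest ESC peaks relative to constant promoters among those with a RefSeq entry and no day open. CpG dinucleotides are in capitals.
Rec8: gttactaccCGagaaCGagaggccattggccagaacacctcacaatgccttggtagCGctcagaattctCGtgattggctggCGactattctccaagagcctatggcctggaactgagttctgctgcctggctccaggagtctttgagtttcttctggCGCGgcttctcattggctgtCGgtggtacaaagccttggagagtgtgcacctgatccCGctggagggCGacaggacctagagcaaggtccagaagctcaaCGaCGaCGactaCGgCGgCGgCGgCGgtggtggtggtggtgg
Sohlh2: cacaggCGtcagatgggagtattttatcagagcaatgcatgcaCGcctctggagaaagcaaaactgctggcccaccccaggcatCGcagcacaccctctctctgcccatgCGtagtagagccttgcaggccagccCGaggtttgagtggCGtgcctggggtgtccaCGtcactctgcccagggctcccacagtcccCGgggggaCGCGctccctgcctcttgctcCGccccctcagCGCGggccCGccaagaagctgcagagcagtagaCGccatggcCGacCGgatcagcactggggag
Hormad2: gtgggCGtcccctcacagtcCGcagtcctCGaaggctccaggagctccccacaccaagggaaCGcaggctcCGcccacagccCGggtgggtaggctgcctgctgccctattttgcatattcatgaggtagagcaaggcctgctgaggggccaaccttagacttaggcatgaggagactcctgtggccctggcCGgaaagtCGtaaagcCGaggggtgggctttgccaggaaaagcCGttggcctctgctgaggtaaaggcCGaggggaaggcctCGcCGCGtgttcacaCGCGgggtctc
Syce1: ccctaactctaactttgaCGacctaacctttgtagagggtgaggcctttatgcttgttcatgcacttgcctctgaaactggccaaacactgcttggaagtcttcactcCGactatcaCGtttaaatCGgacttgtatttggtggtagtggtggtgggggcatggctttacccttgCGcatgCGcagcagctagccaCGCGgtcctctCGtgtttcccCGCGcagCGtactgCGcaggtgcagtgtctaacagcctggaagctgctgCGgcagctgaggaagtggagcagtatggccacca
Mael: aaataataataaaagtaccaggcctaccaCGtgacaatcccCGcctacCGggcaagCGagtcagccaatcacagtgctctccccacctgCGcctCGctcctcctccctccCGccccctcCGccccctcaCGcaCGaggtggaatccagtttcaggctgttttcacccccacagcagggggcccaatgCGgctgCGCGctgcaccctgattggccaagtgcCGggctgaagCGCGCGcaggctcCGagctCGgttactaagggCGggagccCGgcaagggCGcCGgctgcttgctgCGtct
Ddx4: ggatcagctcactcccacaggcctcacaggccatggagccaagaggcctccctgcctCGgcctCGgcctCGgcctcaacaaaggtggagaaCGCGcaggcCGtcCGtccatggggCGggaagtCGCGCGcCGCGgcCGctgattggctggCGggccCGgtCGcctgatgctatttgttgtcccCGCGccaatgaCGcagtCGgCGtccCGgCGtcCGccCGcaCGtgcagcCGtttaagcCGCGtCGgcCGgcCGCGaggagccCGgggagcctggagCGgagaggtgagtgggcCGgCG
These 6 sequences hold 18, 17, 16, 14, 24 and 38 CpGs, in the order printed. The summits of the ESC peaks lay 190 to 203 bp before the RefSeq start at Rec8, 67 to 168 bp before it at Sohlh2, 124 to 126 bp before it at Hormad2, and from 1 bp before to 5 bp after it at Syce1. At Mael and Ddx4 they reached 186 and 198 bp after the start, so that 2 of 3 and 3 of 4 ESC summits lay within the printed bases. At Rec8 the 14 time course peaks that overlapped the printed bases all had their summits within them. Another peak on NanogN70 day 5 (pileup 4) lay outside, at -418 bp from the nearest start. The only time course peak overlapping the printed bases of Hormad2 was on NanogN70 day 12 (pileup 10). Sohlh2 had no such peak, so its open days, and the others of Hormad2, came from other regions within 2 kb of a start.

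RefSeq promoters were found for 31 of the 35 genes and for 16521 coding genes in all, and Piwil2, Tdrd6, Spo11 and Tex15 had no entry. In 27 of the 31 the RefSeq start lay within 500 bp of the 5′ end used for accessibility. It lay farther away at Piwil1 (33722 bp), Tex101 (4625 bp), Figla (1020 bp) and Stra8 (785 bp), whose sequences are thus not those of that 5′ end. The 31 promoters had a median CpG ratio (observed over expected) of 0.70, with a range of 0.36 at Sycp2 to 1.11 at Tdrd5, against a median of 0.60 over all coding promoters. Their median GC content was 61.3%, against 57%. A ratio of 0.6 or more was found in 20 of the 31, or 64.5%, against 50.2% of all. The E-box CACGTG, searched on both strands, was present in 14 of 31 promoters (45.2%) and in 8.09% of all 16521. Sohlh1 held 3 copies, and Hormad1, Sycp3, Tdrd9 and Piwil1 held 2 each. The E-box contains a CpG, and among promoters with a CpG ratio of at least 0.6 it was present in 11 of 20 members (55%) and in 11.5% of all. The E2F-like motif GGCGGGAA was present in Ddx4, Hormad1 and Slc25a31, that is in 9.68% of the 31 against 3.03% of all. TGACGTCA, the motif of CREB and ATF factors, was in 0 of 31 and in 2.42% of all, and TGANTCA, that of AP-1, was in 6.45% (Brdt and Tex101) and 6.99%. In these 31 promoters no match overlapped a match to another motif, and a match is a run of letters, not a measured binding site.

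The depth of sequencing is unknown, and the number of peaks (44126 to 125467 per library) and the pileup are the only guides to it. The pileup is the number of tags stacked at a peak's summit and is not scaled to depth. To set heights side by side it was divided by the library's median pileup at 11797 promoters that had a peak in all 20 libraries, which was 46 in MEFs, 33 to 44 in ESCs, 19 to 46 with Nanog and 20 to 77 with NanogN70. The NanogN70 day 3 library stood apart. It had the highest of these medians (77) and peaks at the promoters of all 10 T lymphocyte markers checked, where MEFs and each ESC library had 6 and the other time course libraries 1 to 4, so the totals of opened genes and of gene-days are also given without it, and other NanogN70 values include it. MEFs had peaks at 10 of 10 fibroblast marker promoters (summed pileup 387, against 112 to 136 at the 8 open in ESCs), and ESCs at 9 to 10 of 10 stem cell marker promoters (555 to 1020, against 219 at the 6 open in MEFs). Open promoters in fewer cells and a smaller opening in every cell cannot be told apart in such bulk libraries. Every condition but ESC is 1 library, so MEFs against ESCs is 1 library against 3 and has no test.

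In ESCs nearly the whole set was open. Peaks were present at 33, 33 and 31 of the 35 genes in the 3 ESC libraries (92.4% ± 3.29, SD, n = 3), and at 15 of 35 (42.9%) in MEFs. Over all coding genes the shares were nearly level, with 71.1% to 72.8% in ESCs and 70.2% in MEFs. During reprogramming 9 to 17 of the 35 were open with Nanog and 11 to 16 with NanogN70, while 61.1% to 68.3% of all coding genes were open in these libraries. Within 500 bp of the 5′ end the contrast was wider, with 6 open genes (17.1%) in MEFs, 30, 29 and 27 in ESCs, 3 to 10 with Nanog and 5 to 11 with NanogN70. The shares over all coding genes in that window were 59.9% in MEFs, 60.8% to 62.4% in ESCs and 51.2% to 59.1% in the time course. In the NanogN70 path the narrow count was 5 at days 0 and 1 and 11 at the last 2 time points, and in the Nanog path it was highest on day 7 (10) and 8 at the end. Pairs of ESC libraries called the same state at 31 to 33 of the 35 genes and at 96.6% to 97.0% of all genes, and all 3 did at 30 of 35 and at 95.2%.

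**Figure D1:**
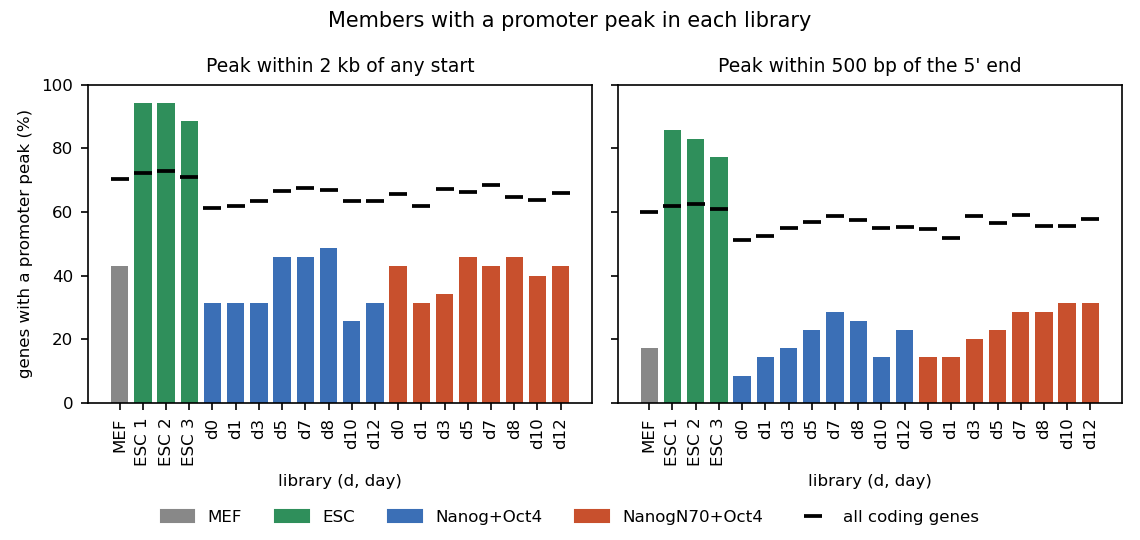
Bars show the percentage of the 35 genes with a promoter peak in each of the 20 libraries, on the left within 2 kb of any start site and on the right within 500 bp of the 5′ end, and black ticks show the same percentage over all 21951 coding genes. The ESC bars are the only ones above their ticks; MEFs reach 42.9% on the left and 17.1% on the right.

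No gene of the 35 lost all its peaks between MEFs and ESCs (a MEF peak and no ESC peak in any library). That is near the share over all coding genes (2.82%), and single MEF peaks of the members were absent from ESCs, as described below. Closed in MEFs and open in all 3 ESC libraries were 15 genes, or 42.9%, against 4.18% of all coding genes. They were Piwil2, Mael, Asz1, Mov10l1, Ddx4, Stk31, Sycp1, Sycp2, Sycp3, Syce1, Hormad1, Hormad2, Rec8, Sohlh2 and Nobox. A further 14 had peaks in MEFs and each ESC library, 5 were open in 2 of the 3 ESC libraries (Piwil4, Tdrd1, Figla, Slc25a31 and Tex101), and Sohlh1 was open in neither. In the narrow window 21 genes were gained (60%, against 4.05% of all), since Dazl, Spo11, Dmc1, Stra8, Brdt and Rpl10l had MEF peaks only at other start sites or farther from the 5′ end. For Dazl the gain is the reach of a peak that MEFs also had, and it is still counted in the narrow window here and below.

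**Figure D2:**
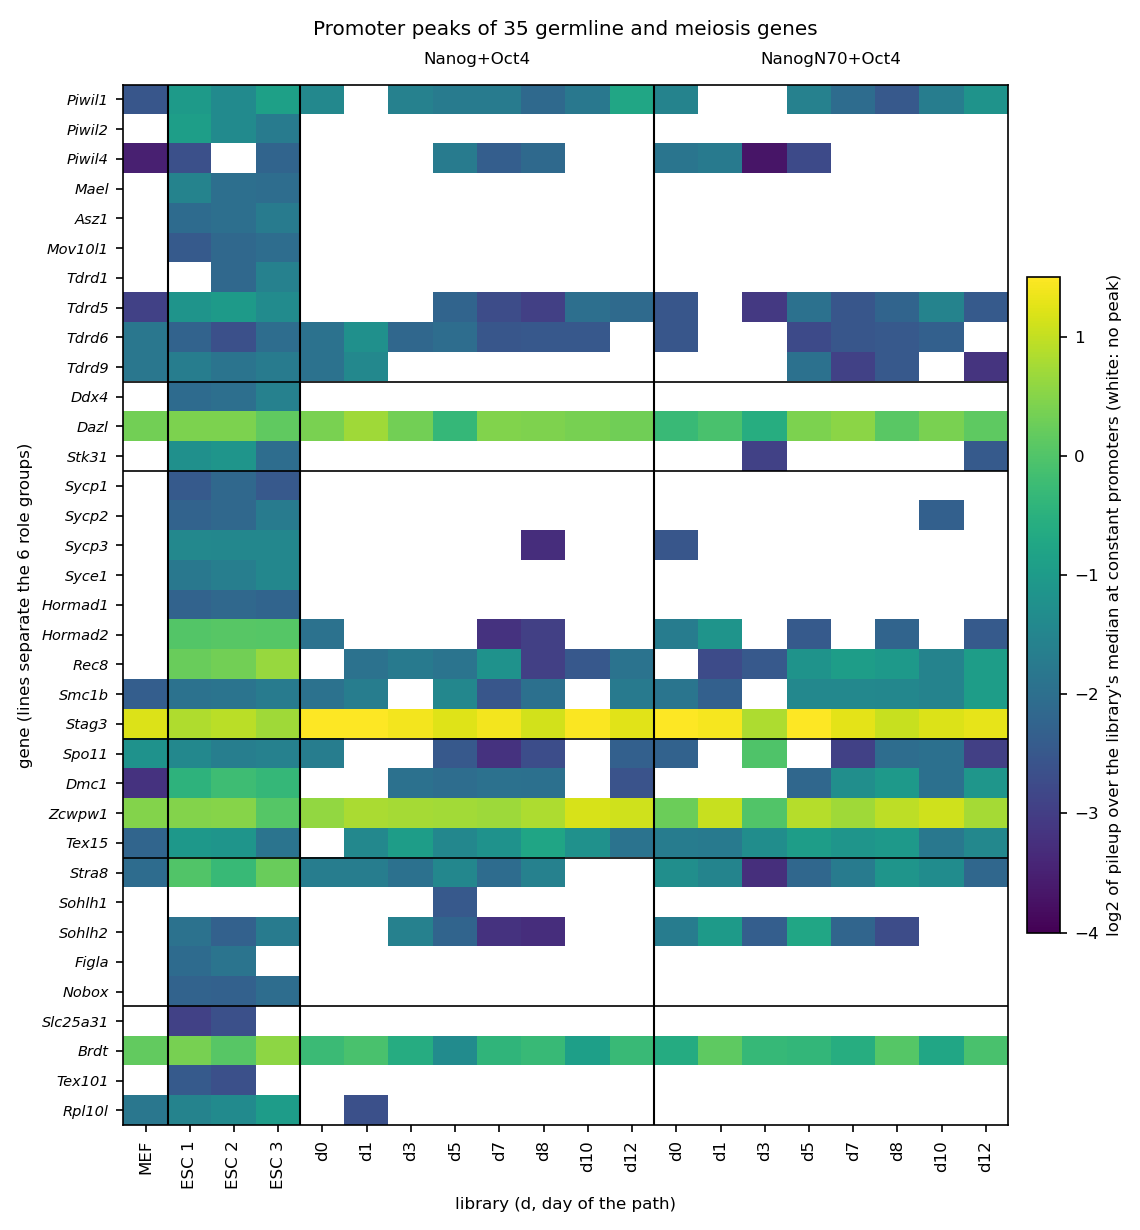
Each row is 1 of the 35 genes, in 6 role groups from the piRNA pathway at the top to spermatogenic genes at the bottom, and each column is 1 library; colour gives the log2 of the highest peak pileup within 2 kb of any start site over the library's median at constant promoters, and white means no peak (values beyond the scale take its end colour). Piwil2, Mael, Asz1, Mov10l1, Ddx4, Sycp1, Syce1, Hormad1 and Nobox are white outside the ESC columns, while Dazl, Stag3, Zcwpw1 and Brdt are coloured in all 20.

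In the deposited lists a minority of the gained members opened on the way, and lists of equal length gave another gained set with another share. Of the 15, 4 had a peak on at least 1 day with Nanog (26.7%, against 46.1% of the 917 coding genes gained by the same rule) and 6 with NanogN70 (40%, against 64.9%). On no day of either path were 9 open (60%, against 30.4%). They were Piwil2, Mael, Asz1, Mov10l1, Ddx4, Sycp1, Syce1, Hormad1 and Nobox. With the same number of top peaks in every list (44126), 12 members were gained, and 7 of these opened with Nanog (58.3%, against 70.5% of 1336 genes), 10 with NanogN70 (83.3%, against 84.1%) and 2 on no day (16.7%, against 13.8%). Of these 12, 7 were among the 15, and 5 opened on some day in both kinds of list while Mael and Syce1 opened in neither. The other 5 (Piwil1, Tdrd5, Dmc1, Tex15 and Stra8) entered because their MEF peak fell out of the shorter list, and all 5 opened in both paths. The 8 of the 15 that left, 7 of them never open, were no longer called in all 3 ESC libraries, and none of the 9 unopened genes opened. On day 12 in the deposited lists, 1 of the 15 was open with Nanog and 3 with NanogN70 (6.67% and 20%), against 16.4% and 33.7% of the 917. Without the NanogN70 day 3 library the NanogN70 count stayed at 6 of 15, and the share of all gained genes was 58%. In the narrow window 4 of 21 opened with Nanog (19%, against 43.2% of 888 genes) and 7 of 21 with NanogN70 (33.3%, against 65.4%), and 14 opened on no day (66.7%, against 31.1%). Without NanogN70 day 3 these were 7 of 21 and 59.9%. Dazl, whose peak MEFs also had, is among the opened genes of both paths in this window.

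The median over genes of the mean ESC pileup was 10.3 for the gained members and 12.3 for all gained genes. Among gained genes with a mean ESC pileup below 15 (NanogN70 day 3 included), 4 of 12 members (33.3%) and 58.7% of all genes opened with NanogN70, and at 15 or above 2 of 3 members and 75.1% of all genes did. In the narrow window the shares below 15 were 3 of 15 members (20%) against 57.5%, and 4 of 6 (66.7%) against 75.4% at 15 or above. At the height they had in ESCs relative to constant promoters, the 14 promoters of the narrow window that stayed closed would have pileups of 10.7 to 22.4 on NanogN70 day 12 and 5.93 to 12.4 on Nanog day 12. The 10th percentile of all peak pileups was 7 and 5 in those libraries. Over all days the lowest such value was 3.76, and the promoters would stand above that percentile in 12 (Sycp1) to 16 of the 16 libraries, with 14 for Mov10l1, Hormad1 and Nobox. These heights come from the ESC libraries by which the 14 were selected. A percentile of called peaks is not a detection limit, so whether peaks of that height would have been called was not tested.

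**Figure D3:**
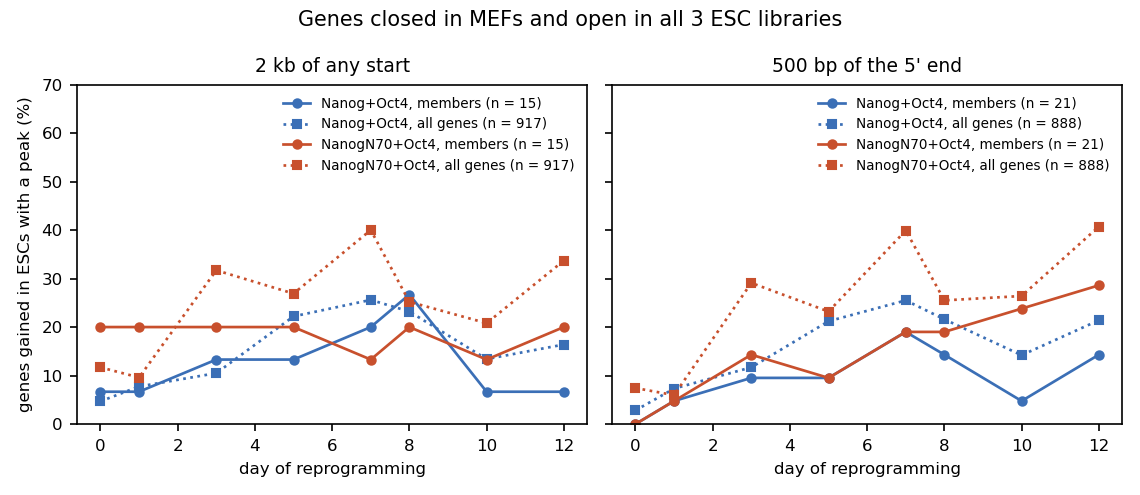
Lines show by day the percentage of genes gained in ESCs (no MEF peak, a peak in all 3 ESC libraries) that had a peak, for the members (circles, solid) and for all coding genes (squares, dotted) in both paths, on the left within 2 kb of any start site and on the right within 500 bp of the 5′ end. On day 12 in the narrow window 14.3% of members and 21.4% of all gained genes were open with Nanog, and 28.6% and 40.7% with NanogN70.

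A gene may count as opened through a peak that is not the one ESCs use, so peaks of all libraries that overlapped were merged into regions. The 35 genes had 90 such regions, of which 4 were open in all 20 libraries, 35 were open in ESCs alone and 23 in the time course alone. There were 24 regions with a peak in all 3 ESC libraries and none in MEFs, and 4 of them (16.7%) opened at the same place with Nanog and 6 (25%) with NanogN70. Over all coding genes 27.8% and 46.2% of 4838 such regions did (for NanogN70 40.3% without day 3, with the members' 6 unchanged), and regions shared by neighbouring genes are counted for each. The 6 regions belonged to Rec8, Dmc1, Spo11, Hormad2, Stk31 and Tdrd5. All 6 were open on NanogN70 day 12 (25%, against 24.1% over all genes), and 3 were open on Nanog day 12 (12.5%, against 10.8%).

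The members' peaks lay closer to start sites in ESCs. Summits lay within 250 bp of one of the gene's own starts for 66.7% to 68.8% of the members' peaks in the 3 ESC libraries (n = 3), for 25.9% of 27 peaks in MEFs, for 23.5% to 60% with Nanog (8 libraries) and for 36.4% to 60% with NanogN70 (8 libraries). Over all coding genes the shares were 53.2% to 55.5% in ESCs, 53% in MEFs, 53.2% to 65.6% with Nanog and 53.3% to 66.4% with NanogN70. The members' share was thus above that of all genes in ESCs and below it in MEFs, as was that of the other germline genes described at the end (56.3% to 67.9% in ESCs and 41.9% in MEFs). These differences were not tested.

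**Figure D4:**
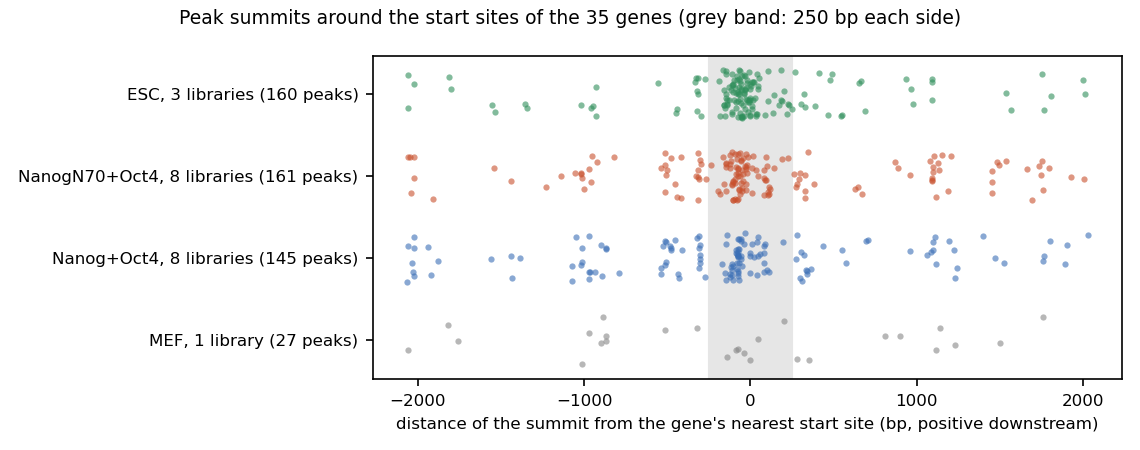
Each point is the summit of 1 peak of a member in 1 library, placed by its distance in bp from the gene's nearest start site, with points spread vertically for legibility and a grey band at 250 bp on either side. ESC summits gather in the band, while 7 of the 27 MEF summits lie in it.

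Rec8, the meiosis-specific cohesin subunit that holds sister chromatids together, was the gained gene with the most days open. Its pileup was 45, 55 and 52 in ESCs and it had no peak in MEFs or on day 0 of either path. With Nanog the pileups from day 1 to day 12 were 5, 8, 9, 20, 5, 5 and 8. With NanogN70 they were 3, 14, 12, 24, 16, 12 and 28. The peak was thus present on all 7 days from day 1 in both paths. Relative to constant promoters it was higher with Nanog on days 1 and 3 and with NanogN70 from day 5 on, and was 0.52 on NanogN70 day 12 and 0.27 on Nanog day 12, below the 1.34 ± 0.21 (SD, n = 3) of ESCs. Its peak score (10 times the negative log10 of the MACS p-value) was 1170 to 1530 in ESCs, 56.3 to 342 with Nanog and 52.4 to 736 with NanogN70. The mean daily difference in log2 relative pileup was 0.29 (NanogN70 minus Nanog), a measure tried beside the test of days open, and the exact permutation test over the 8 days did not separate it from 0 (two-sided p = 0.367, adjusted p = 0.709). Single peaks lay downstream on NanogN70 days 3 (12) and 10 (7), the latter in a region centred 601 bp from a start of Ipo4.

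The other cohesin subunits were open in MEFs, in ESCs and on most days. Stag3 is the meiotic STAG subunit, and its region, centred 60 bp from a start of Gpc2, had a pileup of 107 in MEFs, 68, 84 and 54 in ESCs, 54 to 122 with Nanog and 54 to 137 with NanogN70 (132 without day 3). It was the highest peak of the set in relative pileup in MEFs (2.33), and ESCs had 1.78 ± 0.14 (SD, n = 3). Smc1b, the meiotic SMC1, had a region centred 136 bp from a start of Ribc2, with pileups of 9 in MEFs, 10, 12 and 10 in ESCs, 5 to 12 on 6 days with Nanog and 4 to 28 on 7 days with NanogN70. A peak near starts of both genes cannot be assigned to either.

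Hormad2, an axis protein that marks unsynapsed chromosomes, had one of the highest ESC peaks, with pileups of 39, 46 and 34, which is 1.03 ± 0.010 (SD, n = 3) of the constant promoters. At that place the time course had a single peak, with a pileup of 10 on NanogN70 day 12 (score 88.9). The other peaks that made it count as open on 3 days with Nanog and 4 with NanogN70 had pileups of 4 to 9 and lay in other regions of the gene. Hormad1, its partner on the axis, had pileups of 8, 10 and 7 in ESCs and no peak elsewhere.

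The synaptonemal complex genes had no time course peak at their ESC sites, except for 1 at Sycp2. Sycp1, the transverse filament, had ESC pileups of 7, 10 and 6. Sycp2, of the lateral element, had 8, 10 and 10, and a peak of 7 on NanogN70 day 10 lay in the next region, 344 bp after a start, where ESC library 1 had 6. Sycp3, its lateral element partner, had 12, 12 and 10 at the start and 14, 16 and 12 in a second region downstream of it. Its time course peaks, 4 on Nanog day 8 and 5 on NanogN70 day 0, lay more than 1 kb upstream. Syce1, of the central element, had 11, 14 and 12, with scores of 254 to 472, and no peak in any of the other 17 libraries. Of the 9 axis, cohesin and synapsis genes 7 were thus gained. The narrow window was open on at least 1 day at 5 of the 9 with NanogN70 and at 3 with Nanog, Stag3 and Smc1b included. The share of all coding genes open on at least 1 day was not computed, and in single time course libraries 51.2% to 59.1% were open in that window.

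Dmc1, the meiosis-specific recombinase, was open on several days of both paths. At its start the pileups were 28, 38 and 26 in ESCs. With Nanog they were 7, 8, 12 and 10 on days 3 to 8, and after a gap at day 10 the peak was back with 5 on day 12. With NanogN70 it came on day 5 and stayed, with 6, 19, 16, 9 and 25 from day 5 to day 12. Relative to constant promoters it was 0.46 on NanogN70 day 12 against 0.17 on Nanog day 12 and 0.80 ± 0.064 (SD, n = 3) in ESCs. The MEF peak of 5 that made Dmc1 count as open in MEFs lay at -1761 bp from the nearest start. Between the paths the mean daily difference in log2 relative pileup was 0.07 (exact permutation test over the 8 days, p = 0.930, adjusted p = 0.989). This mean includes NanogN70 day 3, where Dmc1 had no peak and took a value that moves with the library's scale. Relative to constant promoters the peak was higher with Nanog on days 3 and 5 and with NanogN70 from day 7 on.

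Spo11, the enzyme that makes the double-strand breaks of meiosis, had pileups of 14, 14 and 11 at its start in ESCs and none in MEFs, where a peak of 20 lay at -900 bp. A region centred 2155 bp downstream was open in ESCs alone (11, 8 and 6). With Nanog the region at the start had 5, 6 and 6 on days 7, 8 and 12, with summits at -527, -276 and -124 bp. With NanogN70 it had 6, 8, 9 and 7 from day 7 to day 12, and 76 on day 3, the library that also had peaks at all 10 T lymphocyte promoters. The part of what the T lymphocyte peaks stand for in this value was not tested. Without day 3 the first day at the start was day 7 in both paths.

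Zcwpw1, a histone reader at recombination hotspots, was open in all 20 libraries through a merged region centred 9 bp from a start of Mepce, which also covers its own 5′ end. The summits of the highest peaks lay at -971 bp from the nearest own start in MEFs and at -958, -931 and -927 bp in ESCs. The highest pileups were 64 in MEFs, 53, 62 and 34 in ESCs, 29 to 74 with Nanog and 35 to 92 with NanogN70. Tex15, needed for meiotic repair and for transposon silencing, was open in MEFs (10), in ESCs (18, 20 and 9) and on 15 of the 16 days, with 7 to 23 with Nanog and 6 to 31 with NanogN70 (at most 21 without day 3). At all 4 recombination genes the narrow window was open on some day of each path, a share that was not computed over all coding genes.

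**Figure D5:**
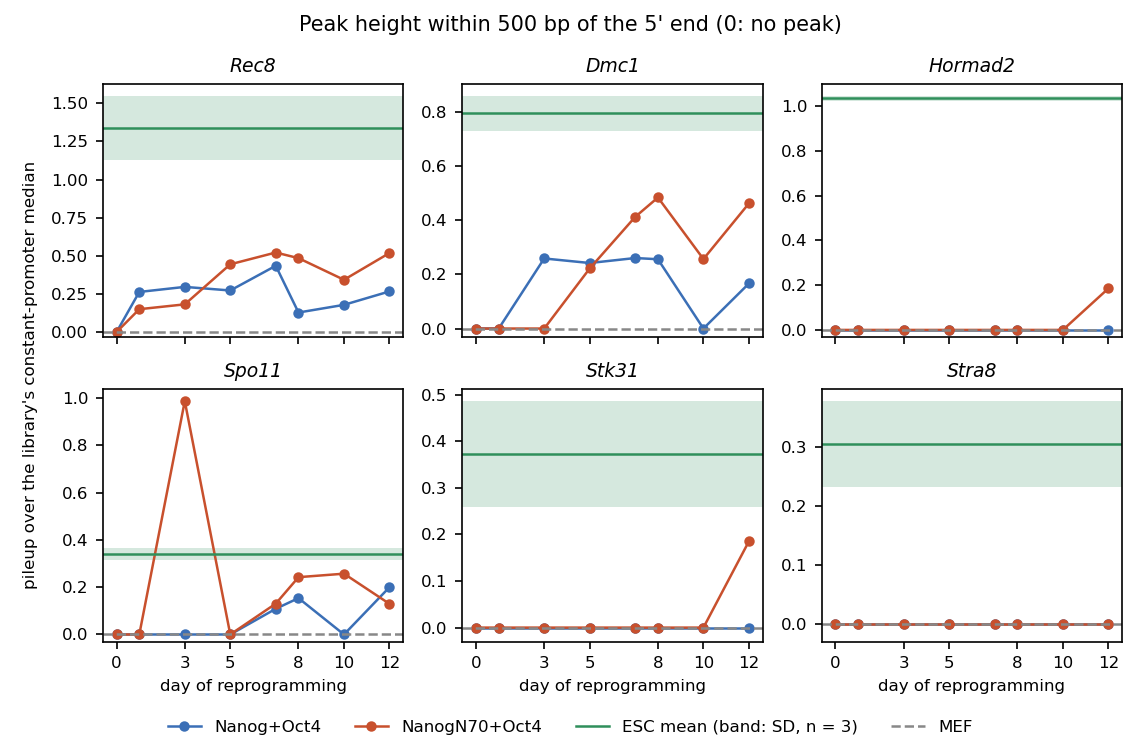
Lines show by day the highest pileup within 500 bp of the 5′ end divided by the library's median at constant promoters, with 0 for no peak, for Rec8, Dmc1, Hormad2, Spo11, Stk31 and Stra8 in both paths; the green line and band are the ESC mean and SD (n = 3) and the dashed line is MEF. Rec8 and Dmc1 stand at 0.52 and 0.46 on NanogN70 day 12, after 0.52 on day 7 and 0.48 on day 8 and lower values on day 10, and stay below the ESC band on all days, the Spo11 value of 0.99 is NanogN70 day 3, and Stra8 stays at 0.

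Of the piRNA genes 4 had peaks at the start in ESCs and nowhere else. Piwil2, the PIWI protein of fetal germ cells, had 20, 17 and 10 in ESCs. Mael, which acts in piRNA-guided silencing, had 13, 11 and 8. Asz1, a scaffold of the germ cell granules, had 9, 11 and 10, and Mov10l1, the helicase that feeds piRNA precursors to the PIWI proteins, had 7, 10 and 8. Tdrd1, a tudor scaffold, was open in ESC libraries 2 and 3 alone (10 and 11). Its relatives behaved otherwise. Tdrd5 had a peak near its first starts in MEFs (6), ESCs (15, 13 and 12), on 5 days with Nanog and 7 with NanogN70, and a second one 40138 bp downstream of the 5′ end that MEFs lacked, with 17, 22 and 13 in ESCs, 4 to 7 on 3 days with Nanog and 5 to 7 on 5 days with NanogN70. Tdrd6 was open in MEFs (13 at a downstream start, 4 near the first), in ESCs (8, 7 and 8) and on 7 days with Nanog and 5 with NanogN70.

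Tdrd9, the helicase of the pathway, has 5 annotated start sites far apart, and its 11 regions had different patterns. The 5′ end was open in ESC libraries 1 and 3 alone (8 and 7), a region 41147 bp downstream in all 3 ESC libraries (12, 8 and 10), and 2 regions farther downstream in MEFs alone (13 and 10). Piwil1, the PIWI protein of late spermatogenesis, had no peak within 500 bp of the 5′ end and was open through regions farther away. The most used, centred 31612 bp downstream, had 8 in MEFs, 19, 16 and 13 in ESCs, 7 to 14 on 7 days with Nanog and 9 to 13 on 5 days with NanogN70. Another, centred 1770 bp downstream, had 6 in MEFs, 12, 17 and 18 in ESCs, 18 on Nanog day 12 and 11, 6, 11 and 24 on the last 4 days with NanogN70. Piwil4, the PIWI protein of fetal male germ cells, had no region shared by all 3 ESC libraries. Of the 10 piRNA genes 5 were open in MEFs, 9 to 10 in ESCs, 2 to 4 with Nanog and 1 to 5 with NanogN70.

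Of the germ plasm genes, Ddx4 (the VASA helicase) was open in ESCs alone, with 9, 11 and 11. Dazl, an RNA-binding protein of primordial and later germ cells, had a peak in all 20 libraries, with 58 in MEFs, 51, 59 and 37 in ESCs, 25 to 63 with Nanog and 19 to 67 with NanogN70. Its highest summit lay 46 bp after a start in MEFs, 46 to 105 bp after it in ESCs and 45 to 115 bp after it in the time course, in a region centred 743 bp downstream of the annotated 5′ end, and the edge of the peak came within 500 bp of that end in ESCs and on 1 day with Nanog and 5 with NanogN70, so its narrow-window gain is the reach of a peak that MEFs also had. Stk31, a tudor kinase, had 16, 20 and 8 in ESCs and 10 on NanogN70 day 12 at the same place (score 178). A further peak of 10 on NanogN70 day 3 lay 2004 bp downstream, in a region where ESC libraries 1 and 2 had 8 and 11.

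Genes of meiotic entry and of the oocyte and spermatogonial programmes did not open at their 5′ ends on any day. Of these 5 genes, Sohlh1 and Figla had no peak there in ESCs either. Stra8, Sohlh2 and Nobox were gained there, and 31.1% of all genes gained in that window also opened on no day. Stra8, which starts meiosis in response to retinoic acid, had 11, 17 and 8 at the 5′ end in ESCs and no peak there in the other 17 libraries. A region with summits 1061 to 1118 bp after its nearest start was open in MEFs (11), in ESCs (38, 36 and 39), on 6 days with Nanog (6 to 13) and on all 8 with NanogN70 (6 to 15). In ESCs that region was level with the constant promoters (1.00 ± 0.18, SD, n = 3) and the start was lower (0.31 ± 0.073, SD, n = 3). Sohlh2, a helix-loop-helix factor of spermatogonia and oocytes, had 10, 9 and 10 at its start in ESCs alone, and a second region, with summits 1239 to 2029 bp after a start, on 4 days with Nanog (4 to 9) and 6 with NanogN70 (5 to 16) that no ESC library had. Its partner Sohlh1 had 1 peak in all 20 libraries, with a pileup of 6 on Nanog day 5. Nobox, an oocyte homeobox factor, had 8, 9 and 8 in ESCs alone. Figla, the oocyte factor of zona pellucida genes, had 9 and 12 in ESC libraries 1 and 2 alone, in a region centred 1102 bp downstream of its 5′ end.

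At the spermatogenic genes too the narrow window had no peak on any day. Brdt, a testis bromodomain protein, had 12, 8 and 9 at its 5′ end in ESCs alone, while a region centred 28313 bp downstream was open in all 20 libraries (52 in MEFs, 46 to 49 in ESCs, 13 to 35 with Nanog and 19 to 62 with NanogN70, at most 51 without day 3). Rpl10l, a ribosomal protein gene used in spermatocytes, had 13, 17 and 17 at its start in ESCs alone and 13 in MEFs at -1819 bp. Slc25a31, the testis ADP/ATP carrier, had 5 and 7 and Tex101, a germ cell surface protein, had at most 7 and 7 in ESC libraries 1 and 2, and neither had a peak elsewhere. In the narrow window the 14 gained promoters that stayed closed on all days had ESC pileups of 6 to 20 and scores of 62.6 to 472 (median 167).

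The paths were compared by day for each gene with a peak on some but not all of the 16 libraries. The 35 genes together were open on 102 of 280 gene-days with Nanog and 114 with NanogN70, and on 54 and 67 in the narrow window. Without day 3 in both paths these were 91 and 102 of 245, and 48 and 60. Of the 54 and 67, Dazl gave 1 and 5 through a peak that MEFs also had. Of the 18 members that could be tested, 11 had more days with a peak in NanogN70, 4 more in Nanog and 3 as many in both. Without day 3, 10 had more in NanogN70 and 3 more in Nanog. Tdrd5, Tdrd9, Stk31, Hormad2, Stra8 and Sohlh2 had 2 more days with NanogN70 and Tdrd6 had 2 more with Nanog, and for Tdrd5, Stk31 and Tdrd6 the difference was 1 day without day 3. By the two-sided exact permutation test of daily differences an unadjusted p below 0.05 needs at least 6 days on which the paths differ, which 1 of the 18 members (Tdrd9) and 58 of the 4843 coding genes tested had, so for the other 17 members the test could not pass. Tdrd9 had p = 0.688 (exact permutation test), and 21 of all genes tested (0.434%) fell below 0.05. The lowest p among members was 0.5. After Benjamini-Hochberg adjustment no gene passed (0 of 4843), and since 8 days allow no p under 0.00781, at least 757 genes at that value would have been needed, so with 58 genes able to fall below 0.05 the adjusted test could call none. Each path is a single time course, so its days follow one another and do not replicate it. In log2 relative pileup, tested at 22 members, Sohlh1 with its single peak had p = 0.0469 (exact permutation test, adjusted p = 0.315), as 14.9% of all genes had a p under 0.05, and a gene without a peak takes a value there that moves with the library's scale. Of all genes tested 53.3% had more days with NanogN70 and 29.7% more with Nanog.

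Germline genes outside the set were counted in 5 lists with 67 genes. In MEFs 33 of them were open, and 18 (26.9%, against 4.18% of all coding genes) were gained in ESCs. Of these 5 opened with Nanog (27.8%, against 46.1% of all gained genes), 15 with NanogN70 (83.3%, against 64.9%) and 3 on no day (16.7%, against 30.4%). Without NanogN70 day 3 the NanogN70 count was 13 (72.2%, against 58%). For NanogN70 these genes thus lay above the share of all gained genes where the 15 gained members (40%) lay below it, and the difference between the sets was not tested. With lists of equal length the order turned, with 11 of 15 other germline genes (73.3%) open on some NanogN70 day, against 83.3% of the members and 84.1% of all gained genes. By list the gained genes were 8 of 23 other meiosis genes (among them Meioc, Syce3, Tex11, Rnf212 and Rad21l), 4 of 13 other piRNA genes (Gpat2, Tdrd12, Henmt1 and Tex19.1), 2 of 8 primordial germ cell genes (Prdm14 and Dnd1), 2 of 12 oocyte genes (Zp3 and Padi6) and 2 of 11 spermatid genes (Prm1 and Prm2). In the narrow window 17 were gained (25.4%, against 4.05%), and 3 of these opened with Nanog (17.6%, against 43.2%) and 11 with NanogN70 (64.7%, against 65.4%). Without NanogN70 day 3 the 11 remained 11, against 59.9% of all gained genes.

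Of the 67 genes, 5 were closed in MEFs and open on at least 4 days of a path. Meioc, which extends meiotic prophase, had 14, 23 and 15 in ESCs and was open from day 5 to day 12 in both paths, with 5 to 11 with Nanog and 8 to 20 with NanogN70. Dnd1, an RNA-binding protein that protects primordial germ cells, had 34, 36 and 26 in ESCs, no peak with Nanog and 8, 6, 13, 10 and 11 on days 3, 5, 7, 10 and 12 with NanogN70. Mcmdc2, a meiotic MCM-like protein, had 26, 37 and 26 in ESCs, 2 days with Nanog and 5 with NanogN70. Henmt1, which methylates piRNA ends, had 8, 14 and 9, and 2 and 4 days. Spaca1, an acrosome protein, had 7 and 5 in ESC libraries 1 and 2, and was open on 4 days with Nanog and 2 with NanogN70.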

How the data were processed

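ATAC-seq of 20 libraries gave the accessible regions. Per the labels and the study's methods, the authors trimmed reads with Trim Galore 0.6.4, aligned them to mm10 with Bowtie2 2.4.5, removed repetitive, mitochondrial and low-quality reads with SAMtools 1.16.1 and called peaks in each library with MACS 1.4.2, with no control named. The deposited score of a peak is 10 times the negative log10 of its p-value, with a minimum of 50. The deposited signal of a summit is its pileup (coverage) in tags, unscaled. The sources used here give no read totals. The labels and the methods give different cell numbers per library.

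Peaks were joined to start sites of GENCODE M21 (GRCm38, the same assembly as mm10) with at least 1 bp of overlap, in Python 3.11.15 with numpy 2.4.6, pandas 2.3.3 and matplotlib 3.10.9. No peak lay past the end of its GRCm38 chromosome. A gained gene had no MEF peak and a peak in all 3 ESC libraries. The paths were compared per gene by flipping the signs of the 8 daily differences in all 256 ways, adjusted over all coding genes tested. The join and the test were tested on simulated data. All 35 members are named, and other germline genes are described where a path had at least 4 open days and MEFs none. The names of further gained genes of those lists were chosen after their values were seen. Alternatives were peak score, window, start sites, ownership, list length, summit position, ESC libraries and days. The members, lists and rules were chosen with earlier results of these data known.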

Additional observations from a re-analysis of the deposited data

Results flagged for a closer look

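At the 10 T lymphocyte marker promoters, which are outside the germline set, the summed pileup was 682 in the NanogN70 day 3 library, against 91 in MEFs, 72 to 103 in ESCs and 12 to 86 in the other time course libraries. It was singled out because these peaks lie outside the germline comparison and exceed every MEF and ESC value. Pileups are not scaled to depth, and this library had the highest median at constant promoters (77). In it Spo11 had its highest value of the time course (76), and the 5 lists of other germline genes also had their highest sums of the time course, with 560 at the meiosis genes (128 to 477 elsewhere), 416 at the piRNA genes (112 to 408), 265 at the primordial germ cell genes (22 to 166), 197 at the oocyte genes (35 to 150) and 147 at the spermatid genes (0 to 35). The other marker lists were not highest there, with 206 at the fibroblast markers (72 to 226 in the other time course libraries), 265 at the stem cell markers (116 to 1317) and 85 at markers of gonad supporting cells (60 to 190). What the germline sums have in common with the T lymphocyte peaks was not tested.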

How the results depend on the processing

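Depth is unknown, and a promoter without a peak may be open below a library's detection limit. Of 77 alternative values, 65 stayed within 1.5 times of the count given above. The 15 members open in MEFs became 9 with windows of 500 bp, 8 with the same number of top peaks in every list (44126) and 6 within 500 bp of the 5′ end. With equal lists 12 members were gained, of which 10 opened with NanogN70 and 7 with Nanog, but only 7 of the 12 were among the 15 gained in the deposited lists (6 and 4 opened), and 5 had a MEF peak there. The number of gained members open on day 12 in both paths was 1 and became 2 with 1 kb windows, 3 at a score of at least 100, 3 with 500 bp windows, 3 within 500 bp of the 5′ end and 5 with equal lists. The excess of NanogN70 in gene-days was 12 and became 19 at a score of at least 100 and 6 with 1 kb windows. The cause of these shifts was not tested. Leaving out each ESC library in turn gave 15 to 18 gained members, with 6 opened with NanogN70, 4 with Nanog and 1 open on day 12 in both each time. By the exact permutation test, which could call no gene by days open after adjustment, none passed under any of the 4 alternatives, with 5 to 2486 genes at an unadjusted p under 0.05. The largest of these counts belongs to the log2 pileup, where genes without a peak take a value that depends on the library's scale. The narrow window around the 5′ end and the values without the NanogN70 day 3 library were chosen after the data were seen.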
